A study of Mus musculus with 10 samples.

Results

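Regulatory T cells (Tregs) of wild-type C57BL/6J mouse spleen, labelled nTregs, were stimulated through the T cell receptor for 24 h with anti-CD3 and anti-CD28, and TSLP was added to some of the cultures. The comparison described here sets 2 RNA-seq libraries of cells that received TCR stimulation together with TSLP against 2 libraries of cells that received TCR stimulation alone, and so asks which transcripts differ when this cytokine is present. These 4 libraries are all samples of the series with these labels, out of 10 samples. The remaining 6 libraries are Tregs sorted from allergic lungs of ovalbumin-immunized mice, 3 from controls carrying Foxp3 YFP-Cre and 3 from mice in which the same Cre deletes Crlf2, and they are used only at the end. No label says that the libraries of a group came from separate mice or cultures, so the p-values measure the spread between these libraries, which may be technical. Neither the dose of TSLP nor the purity of the sort is in the labels, and no unstimulated spleen library was analysed here.

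TSLP (thymic stromal lymphopoietin) is an epithelial cytokine related to interleukin-7. It binds a receptor made of the TSLP-specific chain, encoded by Crlf2, and the interleukin-7 receptor alpha chain, encoded by Il7r, which signal through JAK1 and JAK2 to STAT5. TSLP is best known for acting on dendritic cells, CD4 T cells and innate lymphoid cells in type 2 allergic inflammation. In Tregs, STAT5 downstream of interleukin-2 maintains Foxp3, the transcription factor that defines the lineage.

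The libraries held between 27237313 and 51671901 reads over 1 transcript row per gene symbol, with the deeper libraries in the TSLP group. Each of the 11 general T cell markers had reads, and their summed level lay between 3777 and 3992 CPM (reads scaled to the library's total, with a further scaling by the trimmed mean of M values, TMM, for single genes but not for such sums). All 8 Treg markers had reads, with sums of 1850.1 and 1902 CPM without TSLP and 2618 and 2766 CPM with it, a list that includes the abundant Il2ra. Markers of other cells were low: the B cell list summed to 104.9 and 97.8 CPM without TSLP and 76.4 and 77.8 CPM with it, the CD8 T cell list to 37.8 and 37.8 against 26.6 and 28.4 CPM, and the macrophage list to at most 5.35 CPM. The genes Marco, Clec9a, Ear1, Emcn, Dcn, Pdgfra, Scgb1a1 and Sftpc had 0 reads in all 4 libraries. The first TCR library stood apart from the other three. It held 144.9 CPM over olfactory receptor rows, against 69.7 CPM in the second TCR library and 38.4 and 39.8 CPM with TSLP. Its Malat1 level was 767 unscaled CPM, against 309 CPM in the second TCR library and 216 CPM in each TSLP library. Across 11817 genes above 1 CPM, the median absolute log2 difference was 0.18 between the TCR libraries, 0.078 between the TSLP libraries and 0.37 between the groups.

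Of 13214 genes that passed the filter on low counts, 6050 differed between the groups at an adjusted p below 0.05 in the edgeR quasi-likelihood test. This is 45.8% of the genes tested, with 2999 higher with TSLP (22.7%) and 3051 lower (23.1%). The split depended on scaling: of the genes changed by TSLP in TCR-stimulated spleen Tregs, library totals alone gave 5059 higher and 2000 lower, and RPKM with a pseudocount of 1 gave 4973 and 962. In 75.4% of the genes the 2 groups did not overlap. Most differences were small, since 351 of the genes that rose and 1117 of those that fell did so 2-fold or more. Because the samples are bulk RNA, a lower value can reflect fewer cells expressing a gene or less RNA per cell, and these cannot be told apart.

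The direction of change followed the length of the transcript up to 6000 bp. Among 270 genes with rows under 500 bp, the median log2 fold change was -1.0, with 13 genes higher and 154 lower. Rows of 500 to 1000 bp had a median of -0.74 and rows of 1000 to 1500 bp a median of -0.35, whereas the 2258 genes of 4000 to 6000 bp had a median of 0.21, with 810 higher and 235 lower. Short rows were high in both TCR libraries and low in both TSLP libraries, so that the length trend and the treatment cannot be told apart. Over genes, the Spearman correlation of log2 fold change with row length was 0.35. It was -0.32 with GC content over 13136 genes. Genes share libraries and are not independent, and these values describe the trend.

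The lists and many genes below therefore carry a second value beside that from the reads as deposited, after removal of each library's smooth (loess) trend on row length. The second fit called 5500 genes (41.6%). Both fits called 2135 genes higher (16.2%) and 2066 lower (15.6%). The list counts below mostly come from a single fit and are read against the shares of that fit. On the reads these were 22.7% higher and 23.1% lower, and after length removal 20.9% and 20.7%. After removal of length and GC trends they were 19.4% and 20.1%. Of the genes first called higher, 864 were not called after removal and 0 turned lower, while 925 of those first called lower were not called and 60 turned higher. When each library was left out in turn, 1293 of the 2135 rises and 1197 of the 2066 falls stayed past the threshold each time, and 2133 and 2056 kept their sign. Leaving out a TSLP library leaves 1 library in that group, which is assumed to vary like the TCR pair. Likewise, without a TCR library the remaining TCR library is assumed to vary like the TSLP pair, which lay closer together. A call that held without a TCR library therefore says little. The number of calls over all genes also moved with the library left out, as given among the effects of the processing. List counts in these fits move with it, and the shares over all genes by direction are not given for them. In what follows, "rose" and "fell" are used of genes past the threshold in the fit on the reads, and the up to 3 list members with the smallest p that passed in both fits are described first. Other called members were chosen for naming after their values were seen. Groups that did not overlap, and calls that held without a library, follow partly from choosing members by small p.

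**Figure D1:**
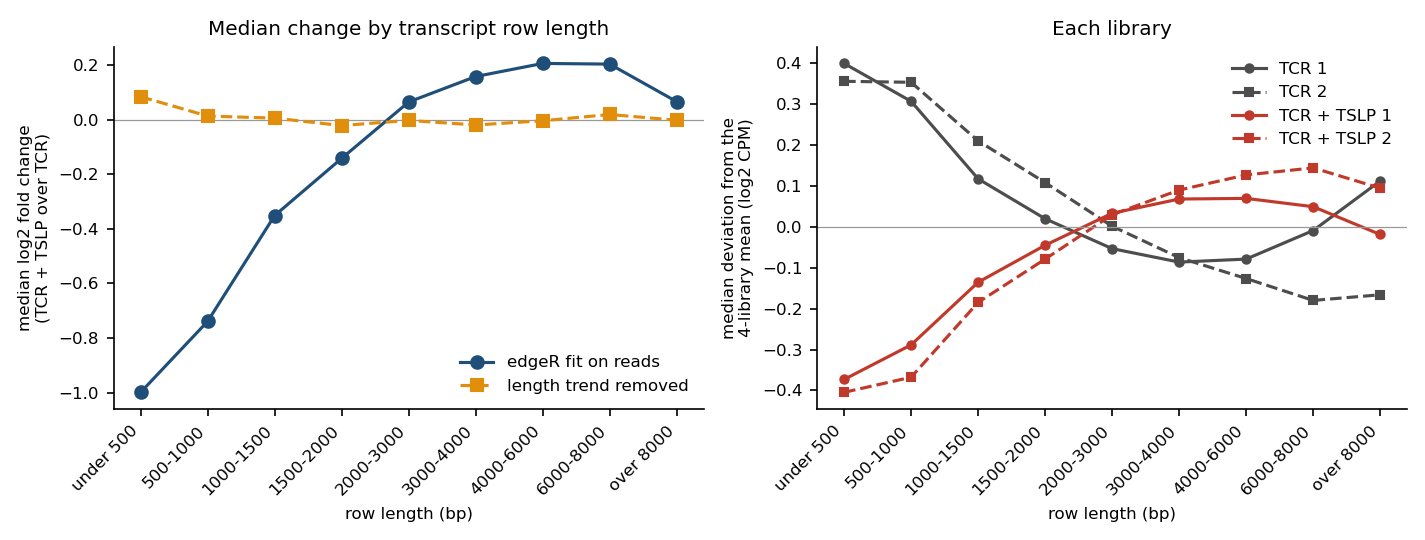
Left, median log2 fold change (TCR with TSLP over TCR) of genes binned by transcript row length in bp, in the edgeR fit on the reads and after removal of the length trend. Right, median deviation of each library from the mean of the 4 libraries in log2 CPM. The fitted medians run from -1.0 below 500 bp to 0.21 at 4000 to 6000 bp and back to 0.066 above 8000 bp. Both TCR libraries lie opposite to both TSLP libraries below 2000 bp.

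Among the 19 tested genes of the TSLP receptor, the gamma-chain cytokine receptors and the JAK-STAT pathway, 12 rose and 1 fell, with a median log2 fold change of 0.30 (all genes 0.0079). With the trend on length removed 7 were higher and none lower, with a median of 0.10. Leaving out TSLP library 1 or 2 left 6 and 5 rises. Il7r, the chain that TSLP shares with interleukin-7, was at 25.1 and 30.6 CPM without TSLP and 56.7 and 59.4 CPM with it. Both TSLP libraries lay above both TCR libraries, a 2.08-fold rise (log2 1.06 ± 0.12 (SE), adjusted p = 0.00039), and the value was 0.90 after length removal. Il2rb, the shared beta chain of the interleukin-2 and interleukin-15 receptors, rose from 334 and 333 to 573 and 637 CPM (log2 0.86 ± 0.091 (SE), adjusted p = 0.00036, 0.75 after length removal). Jak2, a kinase of the TSLP receptor, rose from 159.6 and 168 to 266 and 266 CPM (log2 0.70 ± 0.083 (SE), adjusted p = 0.00053). Its row is long (5055 bp), and its value was 0.48 after length removal and 0.30 after removal of length and GC trends. For Il7r, Il2rb and Jak2 the groups did not overlap, as in 75.4% of all genes tested. Il2ra, encoding CD25, the high-affinity chain of the interleukin-2 receptor, was already abundant at 1014 and 1063 CPM and reached 1572 and 1648 CPM (log2 0.63 ± 0.089 (SE), adjusted p = 0.0011). Its value was 0.42 after length removal and 0.24 after removal of length and GC trends.

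Crlf2, the TSLP-specific chain (chr5:109554709-109559128 in GRCm38.p6), went the other way, with 55.9 and 61.4 CPM without TSLP and 44.1 and 42.8 CPM with it (log2 -0.43 ± 0.10 (SE), adjusted p = 0.008). Its row is 1360 bp long. The call was lost without TSLP library 1 (adjusted p = 0.064) or 2 (adjusted p = 0.11), and the difference was -0.14 after length removal and 0.19 after removal of length and GC trends. Stat5a and Stat5b, the transcription factors downstream of the receptor, rose by 0.26 and 0.42 on the log2 scale. Both calls were lost when a TSLP library was left out (highest adjusted p 0.42 and 0.13), and neither passed after length removal (0.068 and 0.21).

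The STAT5-linked and cytokine feedback genes included the suppressors of cytokine signalling, the Pim kinases and cytokines that STAT5 induces. Of 21 tested, 14 rose and 1 fell (median 0.43). After length removal 13 were higher and 2 lower (median 0.42). Pim1, a survival kinase and a classical STAT5 target (chr17:29490785-29496111), was at 94.8 and 99.9 CPM without TSLP and 208 and 223 CPM with it, 2.22-fold higher (log2 1.15 ± 0.089 (SE), adjusted p = 0.00016). Lif, a cytokine of the interleukin-6 family, rose from 87.6 and 86.5 to 179.6 and 195.97 CPM (log2 1.11 ± 0.09 (SE), adjusted p = 0.00016). In both genes the libraries of a group lay close together and far from the other group. Bcl6, a repressor that defines follicular T cells and is known to be repressed by STAT5, was the member of the list that fell, from 6.66 and 7.82 to 2.92 and 3.10 CPM (log2 -1.26 ± 0.18 (SE), adjusted p = 0.0012). Bcl6 is also high in germinal centre B cells, and the summed B cell markers were lower in the TSLP libraries by a smaller factor, as given above. Their part in the Bcl6 difference was not tested.

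The feedback inhibitors differed in size. Socs1, which blocks JAK kinases, rose from 118 and 150.4 to 214 and 218 CPM (log2 0.68 ± 0.12 (SE), adjusted p = 0.0027, 0.99 after length removal). Socs3 rose from 27.5 and 33.6 to 44.6 and 43.9 CPM (log2 0.53 ± 0.12 (SE), adjusted p = 0.0073, 0.42 after length removal). Cish, often the strongest STAT5 target in T cells, was already at 281 and 297 CPM under TCR stimulation alone and reached only 341 and 351 CPM. Its small rise (log2 0.26 ± 0.085 (SE), adjusted p = 0.037) was lost without TSLP library 1 (adjusted p = 0.24) or 2 (adjusted p = 0.33). Socs2, another STAT5 target, did not pass, at 164 and 174 against 187 and 179.7 CPM (adjusted p = 0.29). Myc, which drives growth and metabolism, rose from 158 and 209.6 to 335 and 347 CPM (log2 0.89 ± 0.13 (SE), adjusted p = 0.0013). Among further members, Socs4, Socs6, Pim3, Osm and Id2 rose in both fits, by 0.82, 0.94, 0.71, 0.77 and 1.01 on the log2 scale.

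The promoters of Cish, Socs3 and Il7r are shown because these genes carry the STAT5 motif TTCNNNGAA near their start, in capitals. The motif is its own reverse complement and was searched in windows of 300 bases, 250 before to 50 after the annotated start, taken from RefSeq (GRCm38.p6). The Cish window (chr9:107296409-107296708, plus strand) holds a pair of matches, 2 bases apart, and the others 1 match each (Socs3 chr11:117969317-117969616 and Il7r chr15:9529827-9530126, both minus strand). The Socs3 window lies wholly inside the gene's annotated span (chr11:117966079-117970336), short of its upper end, where the gene begins.
Cish: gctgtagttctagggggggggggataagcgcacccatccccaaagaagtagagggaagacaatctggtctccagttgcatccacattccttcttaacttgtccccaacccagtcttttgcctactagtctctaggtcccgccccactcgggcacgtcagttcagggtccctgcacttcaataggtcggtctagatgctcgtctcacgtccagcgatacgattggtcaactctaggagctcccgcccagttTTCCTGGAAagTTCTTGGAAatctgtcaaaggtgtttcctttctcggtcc
Socs3: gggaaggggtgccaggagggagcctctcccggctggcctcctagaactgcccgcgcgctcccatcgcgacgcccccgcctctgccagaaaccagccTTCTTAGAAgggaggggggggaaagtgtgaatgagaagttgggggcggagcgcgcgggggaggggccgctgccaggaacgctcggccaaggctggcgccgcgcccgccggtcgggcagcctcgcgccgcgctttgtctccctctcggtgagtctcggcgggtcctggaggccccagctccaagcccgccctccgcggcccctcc
Il7r: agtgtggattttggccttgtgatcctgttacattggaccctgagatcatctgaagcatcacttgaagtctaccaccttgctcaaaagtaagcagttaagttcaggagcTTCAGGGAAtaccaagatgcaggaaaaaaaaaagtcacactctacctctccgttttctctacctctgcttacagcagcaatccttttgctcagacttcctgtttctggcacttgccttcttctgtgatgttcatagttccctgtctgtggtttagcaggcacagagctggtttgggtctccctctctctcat
Of 32851 such windows, 8.30% hold the motif, as do 8.52% of the 9759 tested genes with a window. In the STAT5-linked list, 13 of 21 members had a window and 4 held the motif (Bcl6, Cish, Lta and Socs3), 3 of which rose in both fits, though the rises of Cish and Lta did not hold without each TSLP library. In the receptor and JAK-STAT list it was 1 of 17 (Il7r). The list of ATF4 and amino acid response genes, described below, had the same motif in 5 of 25 members with a window. Of these, 3 rose in both fits, so the motif was not particular to the STAT5-linked list. A match describes the letters of the window and does not show binding.

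The type 2 cytokine genes Il4 and Il13 and the chemokine receptor genes Ccr4 and Ccr8 rose in these Tregs. Of 21 tested members of the type 2 list, 8 rose and 1 fell (median 0.30), and 10 were higher and 1 lower after length removal (median 0.50). Ccr4, a chemokine receptor of type 2 helper cells and skin-homing Tregs (chr9:114490316-114505476), was at 70.1 and 69.7 CPM without TSLP and 193.55 and 210.4 CPM with it, 2.89-fold higher (log2 1.53 ± 0.09 (SE), adjusted p = 0.00016). Ccr8, a receptor of type 2 cells and tissue Tregs (chr9:120092133-120094906), rose from 27.9 and 34.4 to 81.2 and 90.7 CPM (log2 1.46 ± 0.12 (SE), adjusted p = 0.00017). The groups were far apart for both receptors, and the values after length removal were 1.41 for Ccr4 and 1.88 for Ccr8.

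Il4, the cytokine that drives type 2 differentiation (chr11:53612460-53618665), was at 17.4 and 18.4 CPM under TCR stimulation and 40.7 and 37.4 CPM with TSLP (log2 1.13 ± 0.10 (SE), adjusted p = 0.00021). Its row is 585 bp long, in the range where the trend ran downward, and its value was 2.08 after length removal. Il13, which acts on airway epithelium and mucus (chr11:53631323-53634702), rose from 5.81 and 6.62 to 14.3 and 15.5 CPM (log2 1.26 ± 0.14 (SE), adjusted p = 0.00037, 1.64 after length removal). Neither call depended on any single library. Il5, the eosinophil cytokine in the same cluster (chr11:53720794-53725103), had very few reads: 2 and 2 reads without TSLP and 21 and 48 reads with it. The ratio of summed reads, scaled by library size, was 9.36, with a 95% interval of 3.49 to 35.3 that covers counting error only. Without TSLP library 2 the fitted call for Il5 was lost (log2 2.78, adjusted p = 0.11). Il3, a growth factor for basophils and mast cells, had 2 and 5 reads against 42 and 45 (ratio 6.74, interval 3.14 to 17.3) and lost its call without TSLP library 1. Il24 (ratio 2.72, interval 2.06 to 3.64) rose as well.

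The Il4 window (chr11:53617289-53617588, minus strand) was the only one among 16 type 2 genes with a window that held TTCNNNGAA, and it is printed with the match in capitals.
Il4: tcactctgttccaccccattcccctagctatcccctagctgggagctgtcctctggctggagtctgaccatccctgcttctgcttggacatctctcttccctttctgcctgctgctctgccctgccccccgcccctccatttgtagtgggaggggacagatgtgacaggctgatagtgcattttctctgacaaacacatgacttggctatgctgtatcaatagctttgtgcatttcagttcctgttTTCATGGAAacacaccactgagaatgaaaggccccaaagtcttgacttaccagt
Il4 has 1 other window in the RefSeq table, and the match lies in the one printed. The printed window lies wholly inside the gene coordinates given above. It is therefore not at their upper end, where a gene on the minus strand begins.

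Regulators of the type 2 programme moved less. Gata3, its master transcription factor, was at 297 and 235 CPM without TSLP and 237 and 235 CPM with it, with overlapping groups (log2 -0.17 ± 0.12 (SE), adjusted p = 0.27). Il1rl1, encoding the interleukin-33 receptor ST2, was at 3.95 and 2.35 against 4.57 and 4.18 CPM (log2 0.47 ± 0.26 (SE), adjusted p = 0.17) and did not pass. Areg, the tissue repair factor amphiregulin, stayed below 1 CPM in all 4 libraries, at 0.387 and 0.359 against 0.401 and 0.443 CPM. Csf2, Maf, Pparg and Il17rb did not pass either. Crtam, an adhesion molecule of cytotoxic CD4 cells, was the member that fell, from 5.27 and 5.91 to 2.41 and 2.71 CPM (log2 -1.12 ± 0.20 (SE), adjusted p = 0.0028). Nfil3, a transcription factor of tissue Tregs, rose from 80.9 and 86.5 to 116 and 115 CPM (log2 0.46 ± 0.088 (SE), adjusted p = 0.0041).

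**Figure D2:**
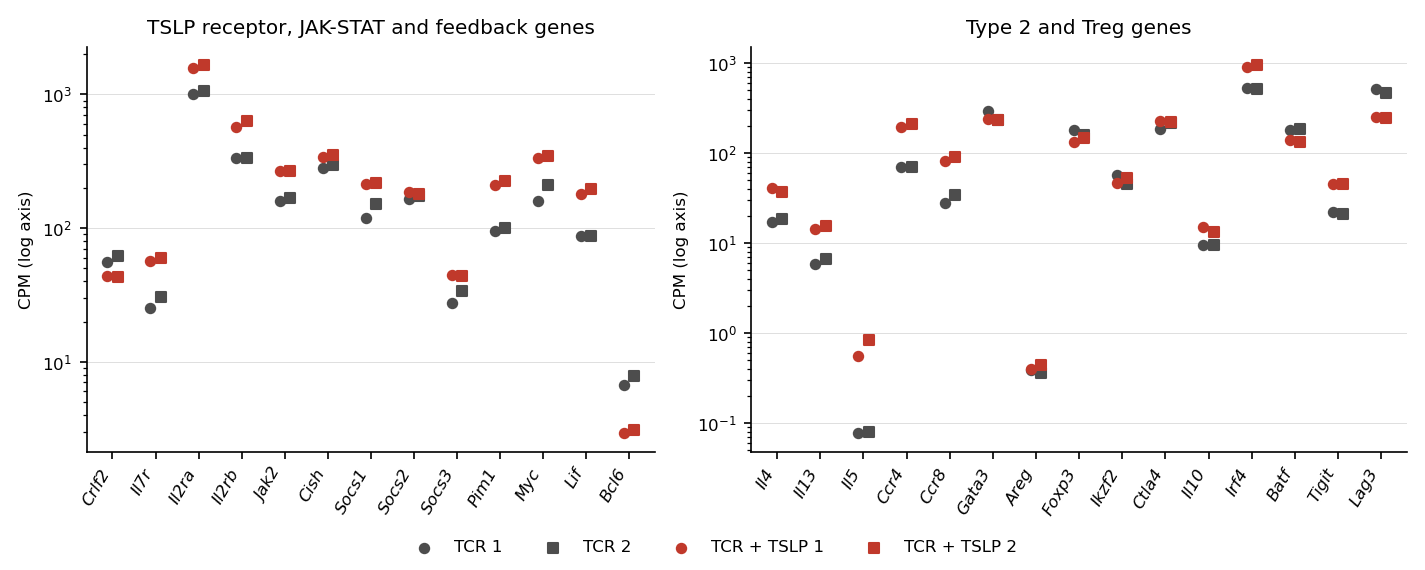
CPM (log axis) in each of the 4 libraries for genes of the TSLP receptor, JAK-STAT and feedback (left) and for type 2 and Treg genes (right), with circles for replicate 1 and squares for replicate 2. Il4, Il13, Ccr4, Ccr8, Il7r, Pim1 and Lif are higher in both TSLP libraries, Bcl6 and Lag3 lower, and Gata3 and Ikzf2 overlap between the groups.

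Treg identity genes showed no common direction. Of 25 tested, 4 rose and 6 fell (median -0.02), and 4 were higher and 5 lower after length removal. Leaving out TSLP library 1 or 2 left 1 and 2 rises and 3 falls each time, and leaving out TCR library 2 gave 8 rises and 7 falls. Foxp3 was at 179 and 157 CPM without TSLP and 134 and 148 CPM with it. The groups did not overlap, but the difference did not pass on the reads (log2 -0.25 ± 0.10 (SE), adjusted p = 0.076). It passed after length removal (log2 -0.44 ± 0.086 (SE), adjusted p = 0.0071), and on the deposited RPKM with a pseudocount of 1 it was 0.11, below the median of all genes on that scale, 0.33. Ikzf2, encoding Helios, overlapped between groups (56.6 and 45.05 against 46.9 and 53.2 CPM), and Ctla4, an inhibitory receptor central to Treg function, was at 187 and 213 against 227 and 222 CPM (adjusted p = 0.18, log2 0.23 ± 0.068 (SE), adjusted p = 0.031 after length removal). Capg, an actin-capping protein high in Tregs, fell from 455 and 459 to 232 and 225 CPM (log2 -0.9998 ± 0.083 (SE), adjusted p = 0.00016, -0.73 after length removal). Nrp1, a surface marker of thymus-derived Tregs, fell from 22.7 and 19.8 to 13.6 and 12.4 CPM (log2 -0.71 ± 0.12 (SE), adjusted p = 0.0024, -0.91 after length removal). Il10, the main suppressive cytokine of tissue Tregs, rose from 9.45 and 9.54 to 15.1 and 13.3 CPM (log2 0.58 ± 0.13 (SE), adjusted p = 0.0077). The Il10 call was lost without TSLP library 1 (log2 0.48, adjusted p = 0.13), and the value after length removal was 0.90.

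Among genes of effector and tissue Tregs, rises outnumbered falls. Of 22 tested, 12 rose and 1 fell (median 0.43), and 10 were higher and none lower after length removal (median 0.38). Irf4, which directs effector Treg differentiation, rose from 525 and 519 to 901 and 939.9 CPM (log2 0.82 ± 0.085 (SE), adjusted p = 0.00033, 0.60 after length removal). Tigit, a receptor that inhibits through the poliovirus receptor on dendritic cells, rose from 22.01 and 21.3 to 44.9 and 45.2 CPM (log2 1.06 ± 0.10 (SE), adjusted p = 0.0002). Bhlhe40, a transcription factor of cytokine-producing T cells, rose from 69.5 and 78.7 to 148 and 154 CPM (log2 1.03 ± 0.10 (SE), adjusted p = 0.00023). These 3 genes kept their calls when any single library was left out. Batf, the AP-1 factor that pairs with IRF4, fell on the reads (181 and 185 against 139.8 and 134 CPM, log2 -0.42 ± 0.084 (SE), adjusted p = 0.0048), lost the call without TSLP library 2 (adjusted p = 0.11) and had the opposite sign after length removal (0.18). Klrg1, Ccr2, Cxcr6 and Penk did not pass. Icos, Gzmb, Epas1, Id2 and Tnfrsf8 rose in both fits, by 0.52, 0.82, 0.87, 1.01 and 1.04 on the log2 scale.

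Inhibitory receptors split. Of 16 tested, 2 rose and 5 fell on the reads, and 3 were higher and 5 lower after length removal. Without TSLP library 1 or 2, 2 members fell each time, and without TCR library 2, 7 rose. Cd160, a receptor of activated cytotoxic cells that binds HVEM, fell from 20.1 and 20.7 to 5.40 and 5.44 CPM, 3.77-fold lower (log2 -1.91 ± 0.12 (SE), adjusted p = 0.00016). Lag3, which binds MHC class II and restrains T cells, fell from 515 and 468 to 254 and 246 CPM (log2 -0.98 ± 0.09 (SE), adjusted p = 0.00022). The length-removed values were -1.99 and -0.94, and both calls held without any library. The sum of the CD8 T cell markers was also lower with TSLP, as given above, and its part in the fall of Cd160 was not tested. Cd200, a ligand that dampens myeloid cells, rose from 70.05 and 84.8 to 139 and 137 CPM (log2 0.83 ± 0.11 (SE), adjusted p = 0.00079). Pdcd1, encoding PD-1, fell by 0.34 on the log2 scale, a call lost without TSLP library 1 or 2 (highest adjusted p 0.23). Cd274, Havcr2, Btla and Tox did not pass.

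Among TNF superfamily ligands, 4 of 12 rose and 2 fell (median 0.15). Tnfsf8, encoding CD30 ligand (chr4:63831202-63861508), was among the 12 largest rises of all genes under the naming rule, from 17.9 and 19.1 to 60.6 and 75.1 CPM (log2 1.88 ± 0.13 (SE), adjusted p = 0.00016). Cd40lg, the helper signal to B cells and dendritic cells, rose from 4.11 and 6.38 to 12.8 and 14.5 CPM (log2 1.39 ± 0.20 (SE), adjusted p = 0.0013). Tnfsf14, encoding LIGHT, fell from 15.4 and 17.04 to 9.93 and 10.03 CPM (log2 -0.70 ± 0.12 (SE), adjusted p = 0.0025). None of these 3 calls depended on a single library. Tnfsf4, encoding OX40 ligand, was at 2.21 and 5.51 CPM, values that differ by more than 2-fold between the TCR libraries, against 9.20 and 10.4 CPM (log2 1.35 ± 0.35 (SE), adjusted p = 0.016). Of 21 TNF receptors, 3 rose and 6 fell, and 4 were higher and 2 lower after length removal. Without TSLP library 1 or 2, 1 fell each time, and without TCR library 2, 10 fell. Tnfrsf13b, encoding TACI, rose from 2.09 and 2.35 to 7.01 and 7.41 CPM (log2 1.70 ± 0.18 (SE), adjusted p = 0.00038), and Tnfrsf8, encoding CD30, the receptor of Tnfsf8, rose from 6.70 and 4.59 to 10.4 and 12.9 CPM (log2 1.04 ± 0.20 (SE), adjusted p = 0.0045). Tnfrsf13c, encoding the BAFF receptor of B cells, fell from 8.17 and 8.06 to 4.92 and 5.19 CPM (log2 -0.68 ± 0.15 (SE), adjusted p = 0.008), a call lost without TSLP library 1 (adjusted p = 0.1) or 2 (adjusted p = 0.079). The GITR and 4-1BB genes Tnfrsf18 and Tnfrsf9 fell by 0.37 and 0.31 on the log2 scale and lost the call when either TSLP library was left out (highest adjusted p 0.14 and 0.25), and the value of Tnfrsf18 was 0.14 after length removal.

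Of 33 tested genes of T cell receptor signalling and costimulation, 14 rose and 6 fell (median 0.07). After length removal 9 were higher and 8 lower, and 10 and 8 rises were called without TSLP library 1 and 2. Without TCR library 1, 10 fell. The receptor subunits Cd3d and Cd3g fell, Cd3d from 654 and 613 to 286 and 263 CPM (log2 -1.21 ± 0.092 (SE), adjusted p = 0.00016) and Cd3g from 572 and 546 to 288 and 269 CPM (log2 -1.01 ± 0.088 (SE), adjusted p = 0.00018). Their rows are short (1330 and 1023 bp), and the values after length removal were -0.91 and -0.51. Cd3e and Cd247, which encode the other CD3 chains, did not pass (-0.089 and -0.10). Themis, an adaptor that tunes receptor signal strength, rose 3.54-fold, from 5.15 and 6.46 to 19.8 and 21.4 CPM (log2 1.82 ± 0.14 (SE), adjusted p = 0.00016). Further rises in both fits were those of Malt1, a protease of antigen receptor signalling (0.94), and the costimulatory receptor gene Cd28 (0.76).

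Among downstream NR4A, EGR, NFAT and AP-1 factors rises outnumbered falls, and NF-kB genes were mixed. Of 28 NR4A, EGR, NFAT and AP-1 factors, 11 rose and 3 fell (median 0.29), and 12 were higher and 3 lower after length removal. With length and GC removed 15 were higher and 1 lower. Without TSLP library 1 or 2, 7 rose each time. Atf3, a stress-induced AP-1 partner, rose from 34.99 and 43.4 to 77.1 and 77.4 CPM (log2 0.98 ± 0.12 (SE), adjusted p = 0.00056). Fosl2 rose from 23.5 and 23.6 to 38.1 and 40.2 CPM (log2 0.73 ± 0.10 (SE), adjusted p = 0.0008). Egr1, Egr2 and Egr3 rose by 0.52, 0.52 and 0.91 on the log2 scale, whereas Nr4a1, the usual reporter of receptor signal, was at 165 and 185 against 148 and 149.5 CPM (log2 -0.23 ± 0.092 (SE), adjusted p = 0.068) and passed only after length removal (-0.31). Of 20 NF-kB genes, 6 rose and 4 fell, and without TSLP library 2 these were 4 and 1. Leaving out TSLP library 1 gave 4 rises and 2 falls. Nfkb1, encoding p105, rose from 188 and 208 to 367 and 383 CPM (log2 0.92 ± 0.091 (SE), adjusted p = 0.00028, 0.72 after length removal). Tnfaip3, encoding the feedback enzyme A20, rose from 25.4 and 30.1 to 47.9 and 51.7 CPM (log2 0.84 ± 0.11 (SE), adjusted p = 0.00092, 0.63 after length removal). Traf1, a target of the pathway, fell from 156 and 166 to 105 and 99.9 CPM (log2 -0.65 ± 0.088 (SE), adjusted p = 0.0009), while Rel and Rela, the main subunits in T cells, were at 0.027 and 0.0053 on the log2 scale, neither past the threshold. Of 14 ERK feedback genes, 7 rose and 1 fell, or 4 and 0 without TSLP library 2. Dusp5, a nuclear phosphatase of ERK, rose from 24.8 and 27.2 to 54.2 and 61.2 CPM (log2 1.15 ± 0.11 (SE), adjusted p = 0.00022, 1.56 after length removal), and Dusp7 and Spred1 rose by 0.63 and 0.68.

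Il12rb2, the signalling chain of the interleukin-12 receptor (chr6:67285986-67376293), was at 5.81 and 4.95 CPM without TSLP and 20.5 and 26.7 CPM with it, 4.39-fold higher (log2 2.13 ± 0.17 (SE), adjusted p = 0.00016, 1.9962 after length removal). The rest of the Th1 and cytotoxic list was mixed. Of 24 tested, 5 rose and 6 fell (median 0.04), or 3 and 4 without TSLP library 1 and 2 and 4 without TSLP library 2. Ifng was at 4.57 and 5.47 against 4.17 and 4.52 CPM (adjusted p = 0.39), and Tbx21, the Th1 master factor, was at 111 and 119 against 119 and 121 CPM (adjusted p = 0.57). Gzmb, a granzyme of cytotoxic cells and effector Tregs, rose from 51.8 and 73.9 to 109 and 113 CPM (log2 0.82 ± 0.15 (SE), adjusted p = 0.0038). Prf1, encoding perforin, had 18 and 11 reads against 58 and 95 (ratio 2.86, interval 1.91 to 4.42), and its fitted call was lost without either TSLP library (highest adjusted p 0.12). Nkg7, a granule protein, fell from 42.5 and 48.3 to 18.5 and 18.7 CPM (log2 -1.29 ± 0.11 (SE), adjusted p = 0.00016, -0.60 after length removal). Of 14 Th17 and follicular genes 2 rose and 3 fell, and none rose without either TSLP library. Without TCR library 1, 4 rose. Il17a was at 0.465 and 0.439 against 0.562 and 0.567 CPM (adjusted p = 0.55). Il21, a follicular cytokine, had 21 and 28 reads against 86 and 116 (ratio 2.24), a call lost without TSLP library 1 (adjusted p = 0.15) or 2 (adjusted p = 0.092).

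Genes of naive and lymphoid-homing T cells moved both ways, with 6 of 20 higher and 5 lower on the reads and the same counts after length removal. Without TSLP library 2, 3 rose and 4 fell, and without TCR library 1, 10 rose. Dapl1, a marker of naive cells, fell 5.39-fold, from 38.3 and 33.04 to 6.90 and 6.36 CPM (log2 -2.43 ± 0.12 (SE), adjusted p = 0.00016, -1.46 after length removal). Foxp1, which keeps naive cells quiescent, fell from 328 and 259.7 to 151 and 149 CPM (log2 -0.97 ± 0.12 (SE), adjusted p = 0.00058). Klf2 and Ccr7, which direct cells to lymph nodes, fell by 0.67 and 0.49 on the log2 scale. Satb1, a chromatin organiser of naive cells and Treg precursors, rose from 254 and 279 to 531 and 549 CPM (log2 1.02 ± 0.091 (SE), adjusted p = 0.00019), as did Tcf7, encoding TCF-1 (87.8 and 105 against 167 and 185 CPM, log2 0.87 ± 0.11 (SE), adjusted p = 0.00075). Each of these calls held in both fits and without any single library.

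Among adhesion genes, Itgb1 and Itgb2 rose by 0.66 and 0.56 and Itgb7, the gut-homing integrin chain, fell by 0.57 on the log2 scale. The list as a whole had 7 rises and 4 falls among 19 genes, or 3 and 3 without TSLP library 1 and 2 and 2 without TSLP library 2. Of 18 chemokine and migration receptors, 3 rose and 3 fell on the reads, or 8 and 3 without TCR library 2 and 2 and 1 without TSLP library 2. After length removal 5 were higher and 3 lower. The BCL2 family showed 4 rises and 6 falls among 19 genes, with 1 rise without either TSLP library. Bcl2, a survival gene downstream of STAT5, was at 203 and 186 against 228 and 236 CPM (log2 0.25 ± 0.088 (SE), adjusted p = 0.046), a call lost without TSLP library 1 (adjusted p = 0.26) or 2 (adjusted p = 0.36), and its value was 0.077 after length removal. Mcl1 and Bcl2l1, which also protect T cells from death, were at -0.00077 and 0.064 on the log2 scale, neither past the threshold. Bad, which promotes death, fell by 0.55, a call lost without TSLP library 2 (adjusted p = 0.08). The near-identical copies Bcl2a1b and Bcl2a1d fell by 0.97 and 1.24, with values of -0.24 and -0.53 after length removal, and are uncertain because reads may be split among copies.

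Genes of amino acid supply were mostly higher with TSLP. Of 30 tested genes of the ATF4 programme, which senses amino acid shortage and builds amino acid transport and synthesis, 18 rose and 2 fell (median 0.37). With length removed 21 were higher and none lower (median 0.40), and with length and GC removed 25 were higher and 1 lower. Leaving out TSLP library 1 or 2 left 13 and 8 rises on the reads. Sesn2, a leucine sensor that restrains mTORC1 (chr4:132492804-132510456), was at 10.2 and 9.58 CPM without TSLP and 27.96 and 30.6 CPM with it, 2.97-fold higher (log2 1.57 ± 0.11 (SE), adjusted p = 0.00016). Slc7a5, the large neutral amino acid transporter, rose from 142 and 161 to 275 and 289 CPM (log2 0.90 ± 0.10 (SE), adjusted p = 0.00035). Slc38a2, a glutamine and alanine transporter, rose from 92.9 and 91.7 to 150.1 and 159 CPM (log2 0.74 ± 0.086 (SE), adjusted p = 0.00048). In all 3 genes the groups did not overlap, as in 75.4% of all genes tested. Psat1, an enzyme of serine synthesis, and Aldh18a1, an enzyme of proline synthesis, rose by 0.67 and 0.58.

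Atf4 itself was at 343 and 435 against 427 and 405 CPM (log2 0.10 ± 0.12 (SE), adjusted p = 0.54) and did not pass, though ATF4 is mainly controlled at translation. Ddit3, encoding the stress factor CHOP, fell from 59.8 and 53.5 to 32.3 and 27.7 CPM (log2 -0.92 ± 0.11 (SE), adjusted p = 0.00062), and Nupr1 fell by 0.75, a call lost without either TSLP library. Both have short rows, and their values were -0.29 and 0.15 after length removal, where neither passed. Of 20 cytosolic aminoacyl-tRNA synthetases, many of which are ATF4 targets, 7 rose and none fell, and 5 were higher and 4 lower after length removal. Without TSLP library 1 or 2, 3 and 4 rose, and without TCR library 1 or 2, 3 and 2 fell. Iars, Nars and Dars, for isoleucine, asparagine and aspartate, rose by 0.93, 0.66 and 0.65 on the log2 scale.

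**Figure D3:**
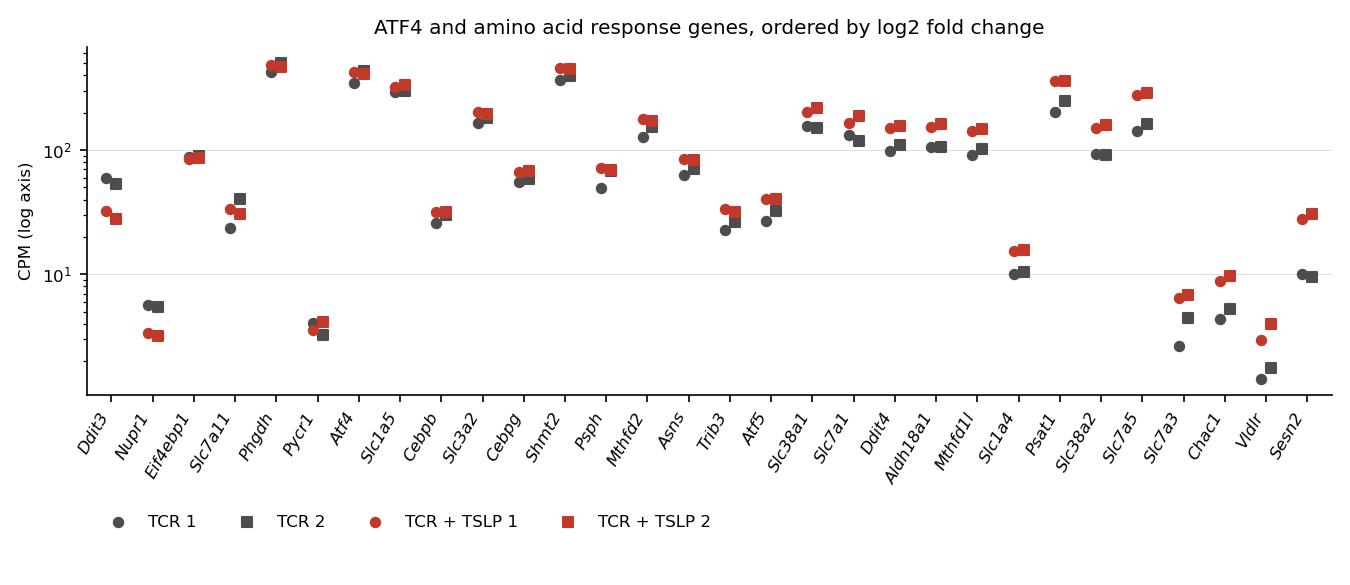
CPM (log axis) of the 30 tested ATF4 and amino acid response genes in each of the 4 libraries, ordered from the most negative to the most positive log2 fold change. Ddit3 and Nupr1 at the left are lower with TSLP, Slc7a11 and Pycr1 overlap, and Sesn2 at the right rises from 10.2 and 9.58 to 27.96 and 30.6 CPM.

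The promoters of Chac1, Trib3, Asns and Nupr1 are shown because they carry the ATF4 composite motif TGATGNAA, or TTNCATCA on the other strand. On the reads Chac1, Trib3 and Asns rose and Nupr1 fell, a fall that did not hold after length removal, as given above. The same RefSeq windows (GRCm38.p6) were searched on both strands, and the match is in capitals. The Chac1 window is chr2:119350992-119351291 on the plus strand. Those of Trib3 (chr2:152344011-152344310), Asns (chr6:7693160-7693459) and Nupr1 (chr7:126625421-126625720) are on the minus strand.
Chac1: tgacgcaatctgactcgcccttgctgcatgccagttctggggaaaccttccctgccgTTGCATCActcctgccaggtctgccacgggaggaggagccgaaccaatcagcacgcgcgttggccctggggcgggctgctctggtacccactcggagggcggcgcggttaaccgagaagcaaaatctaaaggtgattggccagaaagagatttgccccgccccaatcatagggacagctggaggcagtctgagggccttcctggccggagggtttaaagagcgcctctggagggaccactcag
Trib3: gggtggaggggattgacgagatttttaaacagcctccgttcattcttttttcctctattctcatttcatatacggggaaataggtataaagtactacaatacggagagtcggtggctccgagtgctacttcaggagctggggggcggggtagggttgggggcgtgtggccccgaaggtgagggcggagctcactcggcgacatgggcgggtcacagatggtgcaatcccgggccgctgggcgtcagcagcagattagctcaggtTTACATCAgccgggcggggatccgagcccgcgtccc
Asns: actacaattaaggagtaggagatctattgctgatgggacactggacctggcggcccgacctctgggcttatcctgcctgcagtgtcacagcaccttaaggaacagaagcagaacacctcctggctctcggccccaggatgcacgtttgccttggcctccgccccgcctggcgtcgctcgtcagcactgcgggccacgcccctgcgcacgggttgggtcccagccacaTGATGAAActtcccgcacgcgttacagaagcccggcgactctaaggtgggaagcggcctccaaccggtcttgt
Nupr1: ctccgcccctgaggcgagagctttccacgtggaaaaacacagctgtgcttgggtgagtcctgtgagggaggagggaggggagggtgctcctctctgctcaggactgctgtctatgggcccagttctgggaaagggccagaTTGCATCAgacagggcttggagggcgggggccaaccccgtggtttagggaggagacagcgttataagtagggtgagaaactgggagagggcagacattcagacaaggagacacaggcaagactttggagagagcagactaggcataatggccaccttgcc
The motif is in 3.97% of the 32851 windows and in 2.88% of the tested genes with one. In the ATF4 list it is in 8 of the 25 members with a window, and 5 of these 8 rose in both fits. Chac1, a glutathione-degrading enzyme, rose from 4.42 and 5.27 to 8.83 and 9.69 CPM (log2 0.94 ± 0.16 (SE), adjusted p = 0.0027). Trib3, a pseudokinase, and Asns, asparagine synthetase, rose by 0.40 and 0.34, calls lost without either TSLP library (highest adjusted p 0.17 and 0.21). Slc7a11 and Pycr1 hold the motif and did not pass (0.0011 and 0.081).

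Most nuclear transport receptor genes rose. Of 26 tested, 19 rose and 1 fell (median 0.46), and 15 were higher and none lower after length removal (median 0.25). Their rows are long (median 4094 bp), and with length and GC removed the median was 0.09, with 11 higher and 1 lower. Leaving out TSLP library 2 left 12 rises. Ipo7, an importin for ribosomal proteins and histones, stood out at 3.34-fold, from 44.2 and 47.2 to 147 and 158 CPM (log2 1.74 ± 0.095 (SE), adjusted p = 0.00016). Xpot, the tRNA exportin, rose from 86.5 and 88.9 to 144 and 152 CPM (log2 0.76 ± 0.087 (SE), adjusted p = 0.00046), and Cse1l, which returns importin alpha to the cytoplasm, from 100.2 and 113 to 173 and 179 CPM (log2 0.73 ± 0.094 (SE), adjusted p = 0.00077).

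Cell cycle genes were read as a mitotic and a DNA replication list, and a difference between the 2 lists was not tested. Of 30 mitotic genes, 15 rose and 1 fell (median 0.30), with 15 and 2 after length removal and 9 and 1 without either TSLP library. Without TCR library 2, 23 rose. Ect2 and Anln, which build the cleavage furrow, rose by 0.92 and 0.78, whereas Birc5, encoding survivin, fell from 278 and 291 to 189.9 and 177 CPM (log2 -0.63 ± 0.087 (SE), adjusted p = 0.00099). Mki67, the proliferation marker Ki-67, was at 796 and 716 against 649 and 699 CPM (adjusted p = 0.19), and after length removal it was lower (log2 -0.26 ± 0.073 (SE), adjusted p = 0.028). Of 36 DNA replication genes, 11 rose and 7 fell (median 0.04), or 6 and 4 without TSLP library 1, 6 and 2 without TSLP library 2 and 13 and 11 without TCR library 1. Mcm4, a subunit of the replicative helicase, rose from 159 and 194.42 to 325 and 329 CPM (log2 0.89 ± 0.11 (SE), adjusted p = 0.00061), Pola1 rose by 0.81 and Rfc2 fell by 0.83. Pcna, the replication clamp, was at 594 and 791 against 797 and 745 CPM and did not pass (adjusted p = 0.38), but was higher after length removal (log2 0.51 ± 0.10 (SE), adjusted p = 0.0084). With length and GC removed, 12 mitotic genes were higher and 4 lower (median 0.13), against 11 and 7 replication genes (median 0.07).

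Of 30 glycolysis and hypoxia genes, 13 rose and 2 fell (median 0.20), with 13 and 4 after length removal. Hif1a, the oxygen-regulated factor that favours glycolysis, rose from 149 and 168 to 341 and 351 CPM (log2 1.13 ± 0.093 (SE), adjusted p = 0.00016). Egln3, a prolyl hydroxylase that it induces, rose from 45.8 and 56.6 to 136 and 137 CPM (log2 1.41 ± 0.12 (SE), adjusted p = 0.00016), and Slc2a3, a glucose transporter, by 0.82. The abundant enzymes Gapdh and Ldha did not pass on the reads. Gapdh was at 4340.3 and 4808 against 4689 and 4679.6 CPM, and Ldha at 2454 and 2877 against 2730.3 and 2574 CPM. In the cholesterol and fatty acid list, 12 of 29 rose and 4 fell. Scd1 and Hsd17b7 rose by 0.86 and 0.78, and Pmvk fell by 0.9996. In the unfolded protein response, 11 of 23 rose and 3 fell, or 7 and 0 without TSLP library 2. Xbp1, its central factor, rose from 143 and 159 to 231 and 238 CPM (log2 0.63 ± 0.091 (SE), adjusted p = 0.0012), and the endoplasmic reticulum chaperones Pdia4 and Canx rose by 0.79 and 0.49.

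Of 24 heat shock and chaperonin genes, 5 rose and 1 fell, and without TCR library 2, 12 rose and 2 fell. There were 2 rises without TSLP library 1 and 5 falls without TCR library 1. Hsph1 and Cct6a rose by 0.68 and 0.50. Hspa9 rose by 0.47, a call lost without TSLP library 1 (adjusted p = 0.055). Of 23 TGF-beta pathway genes 11 rose and none fell, with 9 and 2 after length removal, 3 and 1 after length and GC removal, and 6 and 5 rises without TSLP library 1 and 2. Smad3, which carries the TGF-beta signal to Foxp3, rose from 23.8 and 27.3 to 40.7 and 44.01 CPM (log2 0.73 ± 0.11 (SE), adjusted p = 0.0014), and Skil and Smurf2, its inhibitors, by 0.56 and 0.74. Of 28 WAVE and Arp2/3 genes, 15 rose and 7 fell. Nckap1, a scaffold of the WAVE complex, rose 3.45-fold, from 2.91 and 2.87 to 9.12 and 10.8 CPM (log2 1.79 ± 0.17 (SE), adjusted p = 0.00025). The short-row subunits Brk1 and Arpc5l fell by 0.81 and 0.68, with values of -0.36 and -0.34 after length removal. The WAVE list had 6 rises without TSLP library 2.

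Interferon-stimulated genes showed no shared direction, with 9 of 44 higher and 10 lower (median -0.08). Without TSLP library 1, 2 rose and 7 fell, without TSLP library 2, 4 rose and 8 fell, and without TCR library 1, 10 rose and 15 fell. Gbp5, a guanylate-binding protein of the inflammasome, rose from 52.8 and 56.8 to 100.4 and 102 CPM (log2 0.89 ± 0.091 (SE), adjusted p = 0.00031). Ifi27l2a fell from 315 and 298 to 94.5 and 92.8 CPM (log2 -1.71 ± 0.086 (SE), adjusted p = 0.00016), with a row of 464 bp and a value of -0.60 after length removal. Ifi35 fell by 0.78 on the log2 scale. On the deposited RPKM with a pseudocount of 1 the median of all genes was 0.33, and on library totals alone it was 0.24, against 0.0079 here. On RPKM the small negative medians of this list, of Treg identity and of the NF-kB list were positive (0.29, 0.24 and 0.31).

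Most members of gene groups with short transcripts fell on the reads, and their medians lay closer to 0 after length removal. Of 80 cytosolic ribosomal protein genes, none rose and 78 fell (median -1.10). After length removal 5 were higher and 46 lower, with a median of -0.26. The list took 23.3% and 21.8% of all reads without TSLP and 13.03% and 12.4% with it. Rpl37a, for example, fell from 2196 and 1975 to 636 and 625 CPM (log2 -1.73 ± 0.10 (SE), adjusted p = 0.00016, -0.77 after length removal). Ribosomal protein genes have many near-identical processed copies, and no source used here says how the authors assigned such reads. In the respiratory chain and ATP synthase list, 58 of 75 genes fell and 2 rose (median -0.86), or 11 rose without TCR library 2. After length removal 27 were lower and 18 higher (median -0.05). In the mitochondrial ribosome, 57 of 76 fell and 1 rose, or 6 rose without TCR library 2, and 33 were lower and 13 higher after removal. The proteasome list had 18 of 31 lower and none higher on the reads, or 10 and 4 after removal, and 11 falls without TSLP library 2. Psmd4, an ubiquitin receptor of the proteasome, fell by 0.87, with a value of -0.57 after length removal.

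Of the 24 S100, galectin, annexin and actin-binding genes, 12 fell and none rose (median -0.65), though 5 rose without TCR library 2, and 9 were lower and 4 higher after length removal (median -0.04). Lgals1, encoding galectin-1, a suppressive lectin of Tregs, fell from 487 and 450.5 to 215 and 216 CPM (log2 -1.12 ± 0.087 (SE), adjusted p = 0.00016, -0.42 after length removal). S100a13 and Crip1 fell by 1.67 and 1.63, with values of -0.88 and -0.50 after removal. The opposite end of the length range was checked with 32 chromatin modifiers of long rows (median 8601 bp). Of these 6 rose and 2 fell on the reads, and 5 were higher and 13 lower after removal. The median log2 fold change of these modifiers was -0.04 on the reads, 0.20 without TCR library 1 and -0.21 without TCR library 2. It was -0.16 without TSLP library 2. Kdm6a, a histone H3K27 demethylase, rose from 12.2 and 11.9 to 22.6 and 25.4 CPM (log2 0.99 ± 0.11 (SE), adjusted p = 0.00047), and Dnmt1, the maintenance DNA methyltransferase, by 0.62. Chd1 rose by 0.48, a call lost without TSLP library 2 (adjusted p = 0.082). Of 40 nucleolar ribosome biogenesis genes 18 rose and 6 fell, or 7 and 3 without TSLP library 1 and 7 and 2 without TSLP library 2. Nol8 and Utp20 rose by 0.67 and 0.53 and Nop56 fell by 0.54.

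On the reads, most of the listed snoRNA host and nuclear long non-coding RNAs were lower with TSLP. In unscaled CPM, the 119 snoRNA rows summed to 66.1 and 69.4 without TSLP and 72.1 and 72.6 with it. Neat1 overlapped between the groups, at 114.3 and 77.3 against 80.4 and 86.4. Of 19 snoRNA host and nuclear long non-coding RNAs, 17 fell and 1 rose (median -0.74), with 8 lower and 4 higher after length removal and 9 falls without TSLP library 2. The exception was Mir17hg, host of the miR-17 to miR-92 cluster and a Myc target, which rose from 34.1 and 42.3 to 63.9 and 57.5 CPM (log2 0.67 ± 0.12 (SE), adjusted p = 0.0037). 2410004N09Rik and 9430008C03Rik fell by 1.51 and 0.54, the second with an adjusted p of 0.05 without TSLP library 2. Both Rpph1, the RNA of ribonuclease P, and Rmrp, the RNA of ribonuclease MRP, are small structured RNAs and fell. Of the 4 tested members of their list, with a median row of 224.5 bp, 3 fell and none rose (median -2.57). After length removal 2 were lower and 1 higher (median -1.28). Rpph1 was at 22.1 and 11.7 CPM without TSLP and 2.03 and 2.13 CPM with it (log2 -3.02 ± 0.30 (SE), adjusted p = 0.00033), and Rmrp at 8.10 and 2.91 against 0.91 and 0.709 CPM (log2 -2.78 ± 0.48 (SE), adjusted p = 0.003). Both were highest in the first TCR library, which also had the most olfactory receptor reads. RNA integrity values were not used here.

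**Figure D4:**
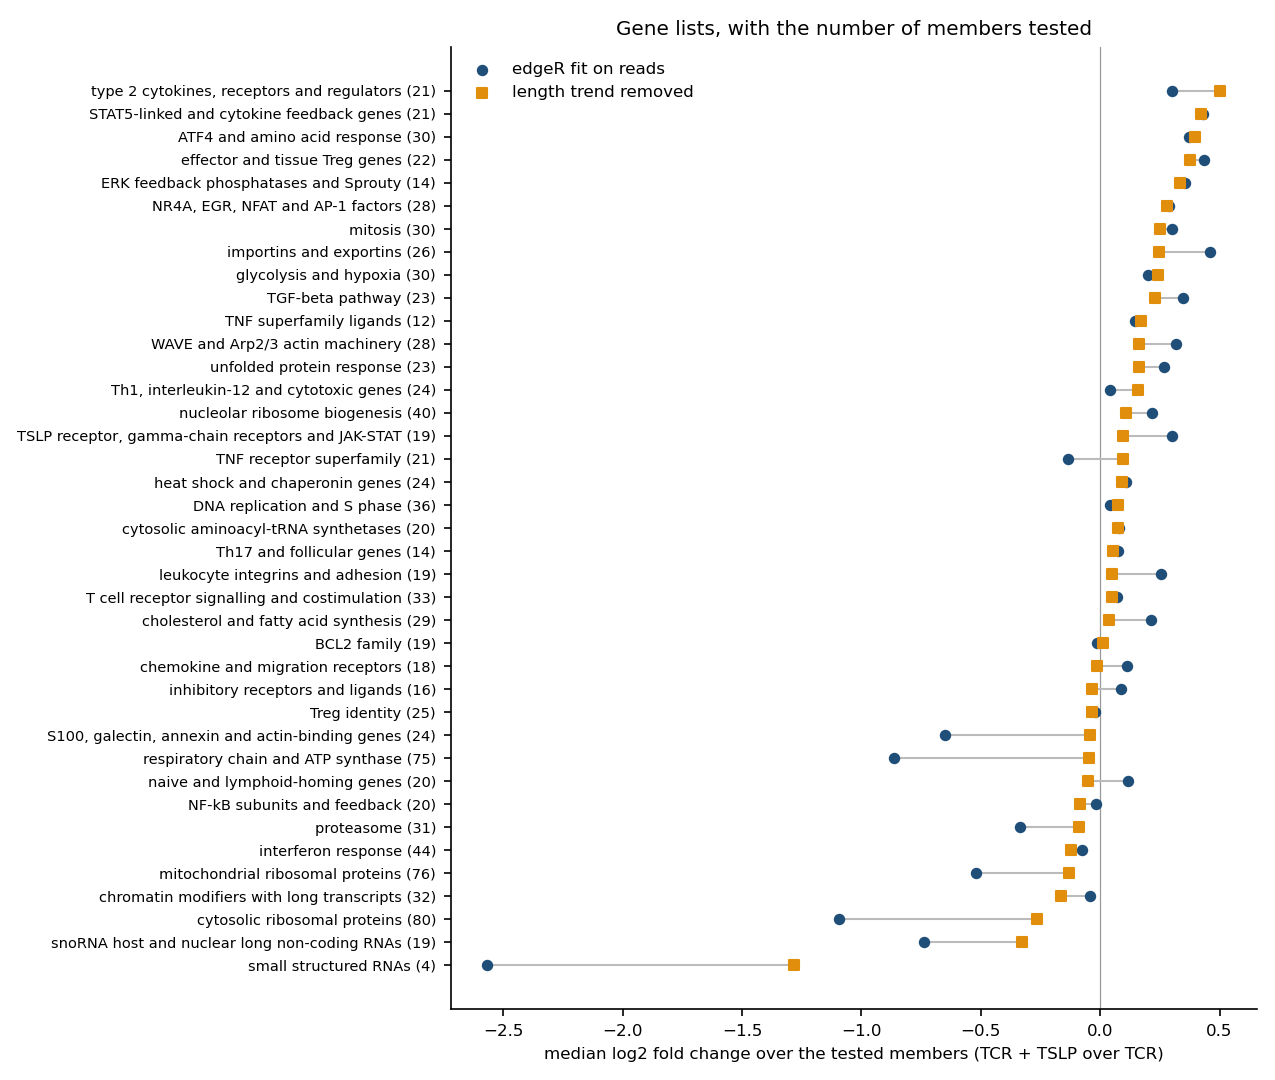
Median log2 fold change (TCR with TSLP over TCR) over the tested members of 39 gene lists, with the number of members in parentheses, in the edgeR fit on the reads (circles) and after removal of the length trend (squares). The cytosolic ribosomal list moves from -1.10 to -0.26 and the respiratory chain list from -0.86 to -0.05, while the STAT5-linked list stays at 0.43 and 0.42.

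The 12 largest rises under the naming rule lay between 1.69 and 2.13 on the log2 scale. They comprised Il12rb2, Tnfsf8, Themis, Nckap1, Ipo7 and Tnfrsf13b, described above, and Pbx3, Arhgap5, Trim23, Gja1, Chm and Mettl15. Pbx3, a homeodomain factor, was at 0.736 and 0.878 CPM without TSLP and 3.16 and 3.03 CPM with it (log2 1.93 ± 0.27 (SE), adjusted p = 0.001). Gja1, the gap junction protein connexin 43, rose from 4.42 and 5.91 to 16.8 and 17.1 CPM (log2 1.72 ± 0.16 (SE), adjusted p = 0.00021), and Chm, an escort protein for Rab prenylation, from 5.54 and 6.58 to 19.2 and 19.9 CPM (log2 1.69 ± 0.13 (SE), adjusted p = 0.00016). The naming rule kept only genes whose groups did not overlap. When each library was left out in turn, the log2 values of the 12 lay between 1.29 and 2.30. The lowest was that of Mettl15 without TCR library 1, and the highest that of Il12rb2 without TSLP library 1.

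The 12 largest falls were those of Wnt4, Il11, Zfp457, Usp17la, Hyal3, Rhox8, Ctcfl, Slc28a3, Grk1, Syt15, Lix1 and Acer1, several of them known from germ cells or other tissues rather than T cells, such as Ctcfl of testis and Grk1 of the retina. Usp17la and Rhox8 have near-identical copies and are uncertain. Wnt4, a secreted signalling protein, was at 17.7 and 4.59 CPM without TSLP and 0.883 and 1.13 CPM with it (log2 -3.44 ± 0.67 (SE), adjusted p = 0.0093). Il11, a cytokine of stromal cells, was at 18.8 and 4.03 against 1.12 and 1.19 CPM (log2 -3.30 ± 0.73 (SE), adjusted p = 0.015), and Ctcfl at 41.8 and 18.3 against 4.17 and 3.81 CPM (log2 -2.92 ± 0.40 (SE), adjusted p = 0.0028). In these genes the first TCR library lay far above the second, which in turn lay above both TSLP libraries. In 11 of the 12 falls it was over 2 times the second. Of 556 genes with such a ratio between the TCR libraries, 448 had a log2 fold change below 0 and 255 fell, with a median of -1.15 that became -0.31 without that library. Without the first TCR library the log2 values of the 12 falls lay between -2.60 and -1.66, against -3.44 to -2.62 with it. That fit leaves 1 TCR library and takes its spread from the TSLP pair, so its calls are not used here. With the length trend removed, 8 of the 12 falls lost the call without TSLP library 1 and 9 without TSLP library 2, Wnt4, Il11 and Ctcfl among them, against none of the 12 rises. Il11 was not called after removal of length and GC trends. Olfactory receptor rows, which T cells are not known to transcribe, ran in the same order across the libraries, and their part in these falls was not tested.

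**Figure D5:**
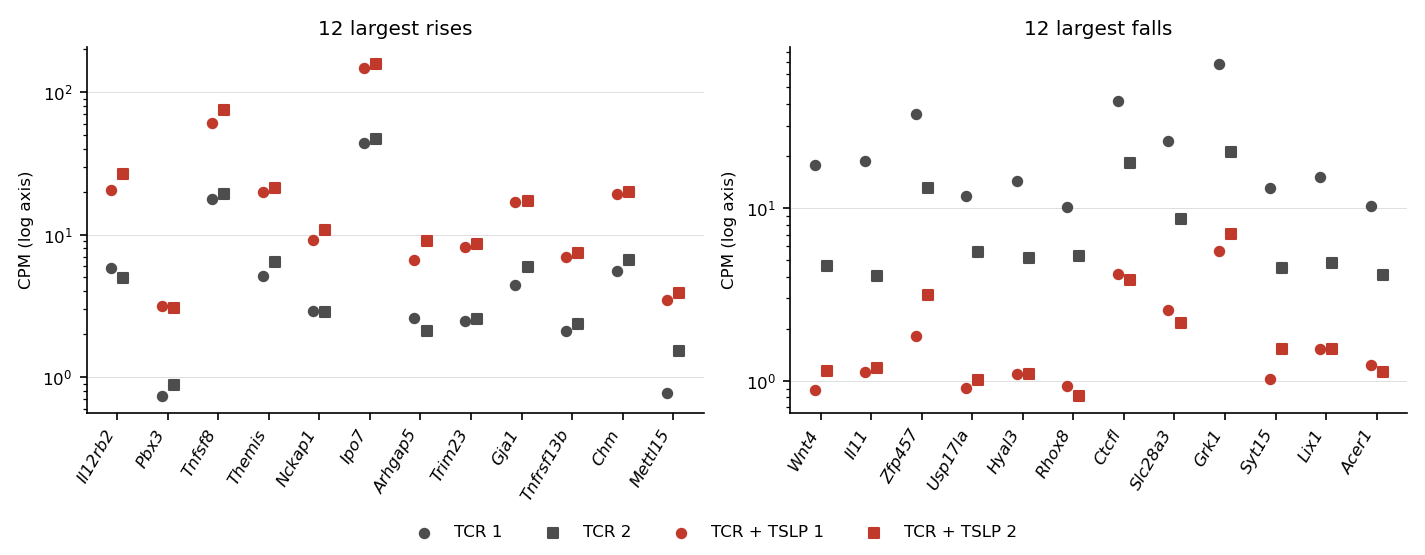
CPM (log axis) of the 12 largest rises (left) and 12 largest falls (right) in each of the 4 libraries, with circles for replicate 1 and squares for replicate 2. In the falls the first TCR library lies above the second in every gene, as for Wnt4 at 17.7 and 4.59 CPM.

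The lung Tregs share no samples with these cultures and give a comparison in which the TSLP receptor chain was removed rather than engaged. Crlf2 was at 114.6 CPM on average in controls and 6.44 CPM in the deleted group. In the lung 227 of 12717 genes (1.79%) passed. This count depended on single libraries, as given among the effects of the processing. The third control library stood apart, with a summed erythroid marker level of 126290 CPM, against 1499 and 5995 CPM in the other controls and 1684 to 2490.4 CPM in the deleted group. Its macrophage markers summed to 3839 CPM, against 253 and 384 CPM in the other controls and 1016 to 1058 CPM in the deleted group. Its NK cell and B cell markers, 372 and 302 CPM, were also the highest of the 6 libraries. Epithelial markers were highest in the first control library, at 72520.0 CPM. The part of these markers in the lung differences was not tested, and values without the third control library are given beside the named genes. Of 11886 genes tested in both, 25 rose with TSLP and were higher after deletion, 35 rose with TSLP and were lower after deletion, 21 fell and were higher, and 34 fell and were lower. These are 28.1%, 28.7%, 23.6% and 27.9% of the lung calls in each direction and 0.857%, 1.20%, 0.76% and 1.23% of the TSLP calls. Over all genes tested in both, TSLP called 24.5% higher and 23.2% lower, and the lung comparison 0.749% higher and 1.03% lower. The overlap shares are read against these, and their difference from them was not tested.

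Some named genes moved in opposite directions in the 2 comparisons. Lag3, which fell with TSLP, was higher after deletion. It was at 64.7, 85.5 and 67.1 CPM in the controls and 265.0, 337 and 309 CPM in the deleted libraries (log2 2.08 ± 0.16 (SE), adjusted p = 0.0047), groups that did not overlap. Its log2 fold change was 2.05 without the third control library, and the call held without any lung library. Gzmb, which rose with TSLP, had lung means of 204 and 69.2 CPM in control and deleted cells (log2 -1.56 ± 0.16 (SE), adjusted p = 0.0076, -1.60 without the third control), a call lost without the first deleted library (adjusted p = 0.072). Socs1, which also rose with TSLP, had lung means of 373 and 171 CPM (log2 -1.12 ± 0.18 (SE), adjusted p = 0.026, -1.30 without the third control).

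Other genes had the same sign in both. Il10 rose with TSLP and had lung means of 43.1 and 200.2 CPM (log2 2.27 ± 0.29 (SE), adjusted p = 0.016, 1.98 without the third control, the library in which Il10 was lowest). Ccr8, Il7r and Tigit were also higher in the Crlf2-deleted lung cells, by 1.85, 1.29 and 1.09 on the log2 scale, or 1.71, 1.23 and 0.88 without the third control. Bcl6, which fell with TSLP, was at -1.07 in the lung, or -1.0016 without that library. All 8 of these lung genes still passed without the third control library. Of the 6 lung libraries, 5 were such that leaving out any of them ended the calls of Socs1, Tigit and Bcl6. This held for 4 libraries in Ccr8 and for 3 in Il7r and Il10.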

How the data were processed

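Total RNA libraries, depleted of ribosomal RNA (TruSeq Stranded Total RNA with Ribo-Zero, 100 to 500 ng RNA) were sequenced as 50 bp single-end reads, per the labels' protocols. The deposited tables give, for 31682 transcript rows, raw read counts, RPKM and row length. Alignment and file handling tools listed in the submitters' processing notes, without their roles, include TopHat2 2.2.1 with Bowtie2 2.2.6 as well as bedtools 2.25.0, next to edgeR and SAMtools 0.1.8, on mm10/GRCm38. The RPKM column is, per the file headers, the authors' reads scaled by row length and library size, and enters only alternatives. Whether reads were counted by strand is not stated, so overlapping antisense genes cannot be separated.

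Of 23992 symbols, 4343 had several rows, and the row with the highest mean reads was kept. Counts were filtered (filterByExpr, minimum count 10), TMM-scaled and tested with edgeR 4.0.16 (quasi-likelihood, robust, R 4.3.3) in the 4 spleen libraries, with Benjamini-Hochberg adjustment at 0.05. A loess curve (span 0.3) of each library's log2 deviation on log2 row length gave offsets for the length-removed fit. The test was tried on simulated counts with known changes. Alternatives used DESeq2 1.42.0, limma 3.58.1 on log2(RPKM + 1 or 0.1), other scalings and filters, and each library left out. The crossed pairing and the length-removed fits with a library left out were chosen after seeing the data. Intervals on read ratios are exact 95% binomial intervals of counting error only, with reads not marked by molecular identifiers.

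Genes, 39 gene lists and 16 marker lists were chosen with earlier results of these data known. Named were 26 key genes, up to 3 members of each list with the smallest p that passed in both fits, and the 12 largest rises and 12 largest falls that passed in both fits with groups that did not overlap, at least 100 reads in each library of the higher group and a row of at least 500 bp, leaving out predicted genes, histones and antigen receptor segments. Of 1167 list symbols, 10 were matched by synonym and 9 were not matched. Gene and promoter coordinates are from RefSeq (GRCm38.p6). The same test on the 3 control and 3 Crlf2-deleted lung libraries is used for the closing comparison only. Figures were drawn with matplotlib 3.10.9. A few genes of the lists are not reported here by name.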

Additional observations from a re-analysis of the deposited data

How the results depend on the processing

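The number of genes changed by TSLP in TCR-stimulated spleen Tregs, 6050 in the main analysis, lay between 5052 and 7059 under DESeq2, other scalings, filters, row choices, RPKM, and removal of length or length and GC trends. It was 1356 with all 4 groups of the series in 1 fit, which takes its spread from the lung libraries as well. Leaving out each library gave 3212 to 8624 genes, and 2462 to 8569 with the length trend removed, where leaving out TSLP library 1 gave 3057. Without length removal, 3761 passed without TSLP library 1, and the cause was not tested. The split of higher and lower calls depended on scaling, from 49.6% higher in the main analysis to 71.7% on library totals alone and 83.8% and 83.7% on RPKM with pseudocounts of 1 and 0.1.

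With the replicate number as a block, the number of genes changed by TSLP in TCR-stimulated spleen Tregs was 5817. The deviations of same-numbered libraries correlated at -0.18 over 13214 genes. With 2 libraries a group, crossed libraries give the same value with the opposite sign. The correlation therefore cannot show whether the numbers pair the samples. The labels do not call same-numbered libraries pairs, and the numbers were not taken to pair the samples. The crossed pairing called 7107. Of 139 named genes that passed, 5 lost the call under the block.

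The number of genes changed by Crlf2 deletion in lung Tregs, 227, was 121 with the replicate block (same-numbered correlations 0.092, -0.15 and -0.043, so not taken as pairs), 942 with DESeq2, 873 with all 4 groups in 1 fit and 134 with transcripts summed. Leaving out each lung library gave 4 to 532, the lowest without the first Crlf2-deleted library and the highest without the third control library. The causes were not tested.

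Among named genes, 51 of 139 lost the call with all 4 groups in 1 fit, 12 with length and GC removed, and 8 and 11 without TSLP library 1 and 2. With length removed as well, 32 and 36 lost it without these libraries, and 19 and 17 of 124 on RPKM with pseudocounts of 1 and 0.1. The sign was opposite for the genes below. Library totals and RPKM shift the median of all genes to 0.24 and to 0.33 and 0.41, so that a sign on these scales is set partly by the scaling. Crlf2 was 0.19, Ctla4 -0.0024 and Bcl2 -0.048 with length and GC removed. Foxp3 was 0.11 and 0.12 on RPKM with pseudocounts of 1 and 0.1. Ikzf2 was 0.21 on library totals, 0.021 without the filter, 0.022 with all 4 groups, 0.25 and 0.34 on RPKM, and -0.16 to 0.16 when a library was left out. Gata3 was 0.058 on library totals, 0.20 and 0.21 on RPKM, and -0.31 to 0.011 when a library was left out. Il1rl1 was -0.027 with length removed and TCR library 2 left out. Batf was 0.18 with length removed (0.17 to 0.19 with a library also left out) and 0.33 with length and GC removed. Ifng was 0.025 on library totals, 0.10 and 0.16 on RPKM and 0.18 with length removed (0.092 to 0.27 with a library also left out).

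With 2 libraries a group, the precision rests on the spread within both pairs, which was wider between the TCR libraries. Genes with few reads, such as Il5 and Il3, are limited by counting error.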
